A study of Mus musculus with 6 samples.

Results

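The mRNAs of 10 genes that guard developing and mature sperm against oxidation were followed in purified mature sperm and in whole testes of the mouse. The genes were chosen by their roles, as selenoproteins, thioredoxin family proteins and other antioxidant enzymes, with earlier results of these data known. They were found in the deposited tables by gene symbol among the RefSeq mRNA rows, whose identifiers start with NM_. All 10 were listed in at least 1 sample, out of 14455 genes with such rows in any sample. Selenop carried its older symbol Sepp1 in the tables and was matched through that symbol. Total RNA came from C57BL/6 mice of 3 to 5 months per the labels (the study's methods name the J substrain and a younger range of ages), all untreated and without an engineered allele named in the labels, in 4 sperm samples and 2 testes samples. Each sperm sample was a pool of several mice, collected from the caudal epididymis and vas deferens and treated with a lysis buffer against somatic cells, and the testes were taken from these mice. The summed counts of the NM_ rows were 33511 to 100027 in sperm and 314273 to 322625 in testes, so 1 count stood for 10.0 to 29.8 counts per 1000000 (CPM) in sperm and for 3.10 to 3.18 in testes. Levels below are CPM of the NM_ total unless they are called FPKM, and an absent row was taken as 0.

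Sperm are rich in unsaturated lipids and lose most of their cytoplasm, and with it most of the usual antioxidant proteins, while they mature. Gpx4, a selenoprotein that reduces lipid hydroperoxides, acts as an enzyme in spermatids and becomes a cross-linked structural protein of the sperm mitochondrial capsule. Thioredoxins pass electrons to other proteins through pairs of cysteines, and Txnrd3, a testis selenoprotein that joins a thioredoxin reductase to a glutaredoxin part, recharges thioredoxins. Txndc2, Txndc8 and Nme8 are thioredoxin family proteins of spermatids and of the sperm tail. Prdx4 and Prdx6 are peroxiredoxins, Sod1 is the cytosolic superoxide dismutase, Gstm5 is a glutathione S-transferase of the mu class, and Selenop is a secreted selenium carrier made mainly by the liver. Selenoproteins hold selenocysteine, which is read from a UGA codon. Mature sperm are generally held to be transcriptionally silent, with mRNA that remains from spermatids, although the study's paper allows that they might keep some transcription. The origin of the sperm mRNA was not tested here.

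The markers of the labelled material were examined first. Of 12 genes of late spermatids and sperm, 11 were listed in sperm and their summed level was 1557 to 3110 CPM there and 3383 to 3563 in testes. Prm2, with 45, 148, 49 and 130 counts, and Odf2, with 12, 78, 13 and 27, held most of these sperm counts. Prm1, Tnp1, Tnp2, Odf1, Akap4, Gapdhs and Ldhc lay below both testes samples in every sperm sample, with Odf1 at 0 counts. Prm2, Prm3, Odf2, Smcp and Acrv1 overlapped the testes values. None of the 10 markers of spermatogonia and spermatocytes had a count in sperm, against 68 counts in testes. Only 6 of the 10 were listed in testes, and Kit, Zbtb16, Dmc1 and Ccnb1ip1 were at 0 there as well. Of all genes listed in testes, 49.8% had no sperm count. Sertoli cell markers summed to 0 to 283 CPM in sperm and 381 to 421 in testes, with 4 of 10 listed in sperm. Of their 30 sperm counts Amhr2 held 12, 1, 0 and 2, which in replicate 1 was 283.1 CPM against 27.9 and 6.36 in testes. Dhh held 9, Clu 5 and Sox9 1, and Wt1, Gata4, Rhox5 and Cldn11 were at 0. Leydig cell markers summed to 0 to 1194 CPM in sperm and 544 to 580 in testes. Star held nearly all of the Leydig marker counts in sperm, and Cyp11a1, Hsd3b1, Hsd3b6, Hsd17b3 and Insl3 were at 0 there. Vessel, peritubular and macrophage markers held 2 counts in sperm, those of blood cells 3, and those of epididymis epithelium 16, from 4 of 12 genes. The blood cell counts were all in replicate 2, at 29.99 CPM against 27.9 and 9.55 in testes. They were 2 of Cd4, a leukocyte marker that the study could not amplify from purified sperm, and 1 of Alas2. The epididymis sum was 0, 19.99, 119.4 and 184.0 CPM across sperm replicates 1 to 4 and 86.8 and 136.8 in testes, so replicate 4 lay above both testes samples. In replicate 4 it came from Adam7 (5 counts), Krt18 (4) and Aqp9 (1), and in replicate 3 from Krt8 (4). Cdh1, Crisp1 and Lcn5 were at 0 in sperm and in testes alike, as were Cst11 and Defb1, while Lcn8, Rnase10 and Cst8 had counts in testes alone. The part of these cells in the values of the redox genes was not tested. In whole testes, fewer cells of a type and less RNA per cell cannot be told apart.

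In testes the 10 genes were ordered by FPKM, a level per length, summed over the transcripts of each gene. Txndc2 stood highest with 13.6 ± 1.82 (SD, n = 2), followed by Gpx4 with 12.7 ± 1.23, Sod1 with 10.7 ± 1.21 and Gstm5 with 8.995 ± 3.03. Txnrd3 followed with 4.23 ± 1.54 and Selenop with 2.10 ± 1.72. Nme8, Txndc8, Prdx6 and Prdx4 had 1.14 ± 1.01, 0.980 ± 0.523, 0.535 ± 0.290 and 0.410 ± 0.580 FPKM. Neighbours in this order overlapped between the 2 testes samples, except that both values of Gpx4 lay above those of Sod1 and both values of Gstm5 above those of Txnrd3. By mean level per length, a spermatid thioredoxin, a lipid peroxidase and a superoxide dismutase stood highest, and the peroxiredoxins lowest. Sod1 overlapped Gstm5 and Prdx6 overlapped Txndc8, so neither end was set apart from the next gene. In sperm the FPKM were 13.2 ± 17.5 (SD, n = 4) for Gstm5, 8.18 ± 14.5 for Gpx4, 1.59 ± 2.69 for Txnrd3 and 1.45 ± 2.91 for Txndc2, with each SD above its mean, and the other 6 genes were at 0.

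Over the set, sperm listed 4 of the 10 genes and testes all 10. Sperm replicates 1 to 4 listed 1, 3, 1 and 3 of them, with 14, 7, 4 and 26 counts in all, and testes replicates 1 and 2 listed 9 and 10 with 176 and 197 counts. The 10 genes together held 0.0330%, 0.0070%, 0.0119% and 0.0478% of the NM_ counts across sperm replicates 1 to 4, and 0.0546% and 0.0627% in testes. The sperm mean of 0.0250% ± 0.0190 (SD, n = 4) was 0.426 of the testes mean, 0.0586% ± 0.00575 (SD, n = 2), and each of the sperm values was below the lower testes value. Over 4 genes the sum in sperm came from different samples, since Gstm5 made up all of the counts in replicates 1 and 3 and none in replicate 4.

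**Figure D1:**
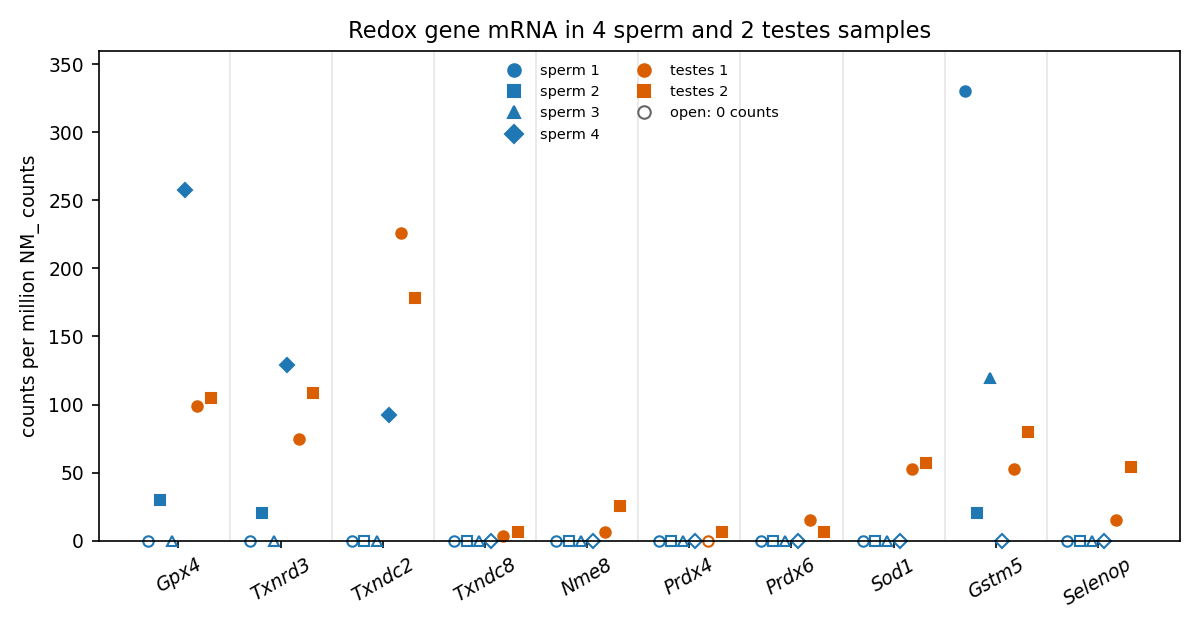
Level of each of the 10 genes in every sample, in CPM of the NM_ total on the vertical axis, with 1 symbol per sample, sperm in blue and testes in orange, and open symbols for 0 counts. Sperm values of Gpx4 and Txnrd3 lie on both sides of the testes values, those of Gstm5 reach 330.3 in replicate 1, and 6 genes have only open symbols in sperm.

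All 4 sperm samples lay below both testes samples for 6 of the 10 genes, namely Txndc2, Txndc8, Nme8, Prdx6, Sod1 and Selenop, and above both for none. Over all listed genes 36.8% lay below in this way and 2.62% above. Of the 7 genes with enough counts for a test, 4 lay below, beside 41.4% of all such genes. Counts were 0 in all 4 sperm samples for 6 of the 10 genes, and for 49.8% of all genes listed in testes. With so few counts, absence is informative only for genes with enough counts in testes, so the numbers that sperm would hold at the testes level were computed from the pooled testes rate and the NM_ totals. At that rate the 4 sperm samples together would hold 46.6 counts of Txndc2, 23.5 of Gpx4, 21.0 of Txnrd3, 15.2 of Gstm5 and 12.7 of Sod1. They would hold 7.95 of Selenop, 3.62 of Nme8, 2.53 of Prdx6, 1.08 of Txndc8 and 0.723 of Prdx4. For Prdx6, Txndc8 and Prdx4 a lower level in sperm was therefore not detectable at this depth.

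**Figure D2:**
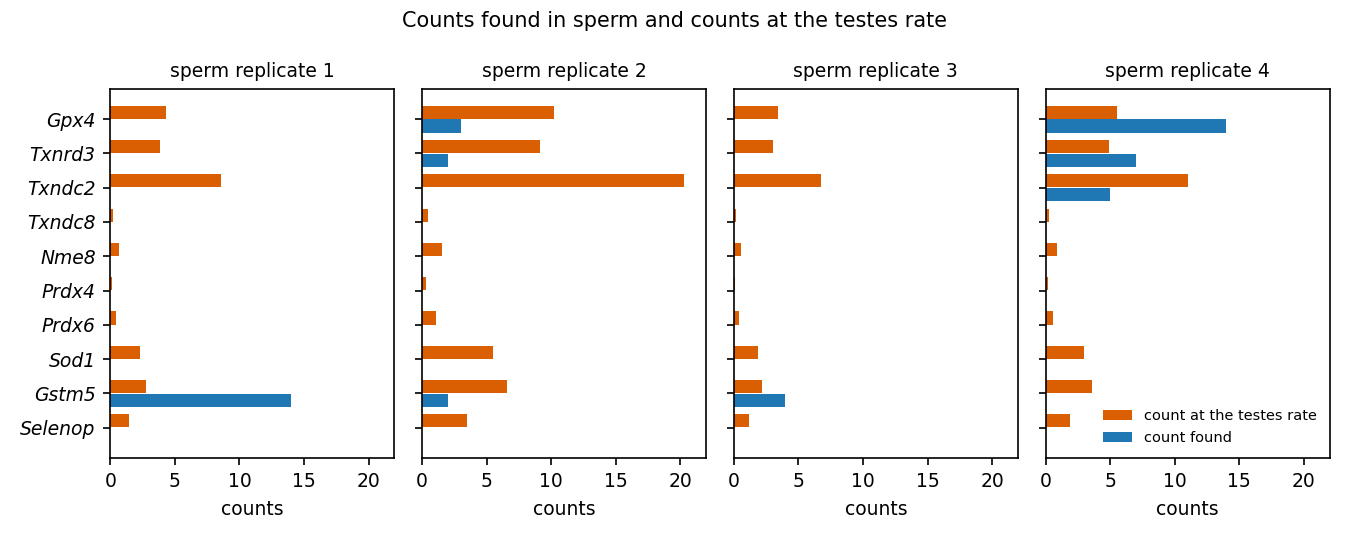
Counts found (blue) and counts at the pooled testes rate (orange) for the 10 genes, with 1 panel per sperm sample and the number of counts on the horizontal axis. Gpx4 and Txnrd3 in replicate 4 and Gstm5 in replicates 1 and 3 exceed the testes rate, and Sod1 has no count where 1.84 to 5.50 would be found at that rate.

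Differences between sperm and testes were tested with edgeR's quasi-likelihood test on all 6949 genes with at least 10 counts over the 6 samples, and a gene was called at a Benjamini-Hochberg adjusted p below 0.05 and a fold change above 2. Of the 10 genes, 7 entered the test and Txndc8, Prdx4 and Prdx6 did not, with 3, 2 and 7 counts in all. In this fit Sod1 and Selenop were called lower in sperm and none of the 7 was called higher, where 17.4% of the genes tested were called lower and 3.83% higher. DESeq2 called none of the 7 in either direction, but left Selenop and Nme8 without an adjusted p. With limma none was called higher, while 4 were called lower on log2(FPKM + 1) and 3 on log2(FPKM + 0.1). At an unadjusted edgeR p below 0.05, 3 of the 7 were lower (Nme8, Sod1 and Selenop) and none higher, beside 38.1% of all genes tested in either direction. Both calls were lost in each of the fits that left out 1 sample and in which the gene was still tested. The 7 genes had a median log2 fold change of -3.06 beside -1.15 over all genes tested. With those of the 7 without a sperm count set to the bound that 3 counts allow, their median was -1.23. The bound was not applied to the other genes tested, so -1.23 has no counterpart over all genes. Relative to the NM_ total, scaling by trimmed means (TMM) moved the median of all genes to -1.97, and the share of all calls that were higher from 18.0% to 3.34%. Thinning all samples to the smallest NM_ total moved them the other way, to a median of 0.23 and a share of 57.4%, over the 2700 genes left to test.

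**Figure D3:**
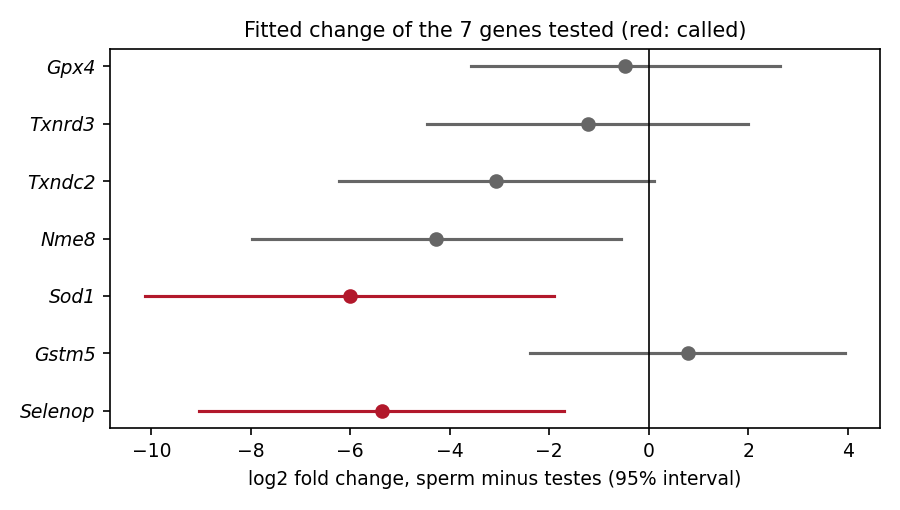
Fitted log2 fold change, sperm minus testes, of the 7 genes tested, with its 95% interval as a line and called genes in red. Sod1 and Selenop are called, and the intervals of Gpx4, Txnrd3, Txndc2 and Gstm5 include 0.

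Gpx4 (GRCm38.p6 chromosome 10, 80047166 to 80056439) had 0, 3, 0 and 14 counts across sperm replicates 1 to 4, and 32 and 33 in testes. As CPM these were 0, 29.99, 0 and 257.6 in sperm and 99.2 and 105.0 in testes. Replicate 4 alone stood above testes, with a Wilson 95% interval of 153.5 to 432.5 CPM, and the other 3 samples stood below. The groups overlapped and the gene was not called, with a log2 fold change of -0.47 (SE 1.58, 95% interval -3.58 to 2.64, edgeR adjusted p 0.853). Without sperm replicate 4 it was -2.85 (edgeR adjusted p 0.236). The gene makes cytosolic, mitochondrial and nuclear forms of the enzyme from different starts, and 2 transcripts were listed. In testes the estimated counts were 19.04 and 15.28 for NM_001037741 (1013 bases) and 12.96 and 17.72 for NM_008162 (959 bases). In sperm replicate 4, 13 of the 14 counts were given to NM_008162, while the 3 counts of replicate 2 were given to NM_001037741.

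Txnrd3 (chromosome 6, 89643988 to 89675529) had 0, 2, 0 and 7 counts in sperm and 24 and 34 in testes. In CPM these were 0, 20.0, 0 and 128.8 in sperm and 74.4 and 108.2 in testes. As for Gpx4, replicate 4 lay above both testes samples and the other sperm samples below, and the groups overlapped. The log2 fold change was -1.23 (SE 1.64, 95% interval -4.46 to 2.0, edgeR adjusted p 0.613), and it was -3.17 without replicate 4 (edgeR adjusted p 0.192). All 9 sperm counts were divided evenly between NM_001178059 and NM_001178060, which are both 2494 bases long, as were all 34 counts of testes replicate 2. Only testes replicate 1 also had counts on the longer NM_001178058 and NM_153162, 8.16 on each. Such even splits show that the counting could not separate the transcripts of a pair.

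**Figure D4:**
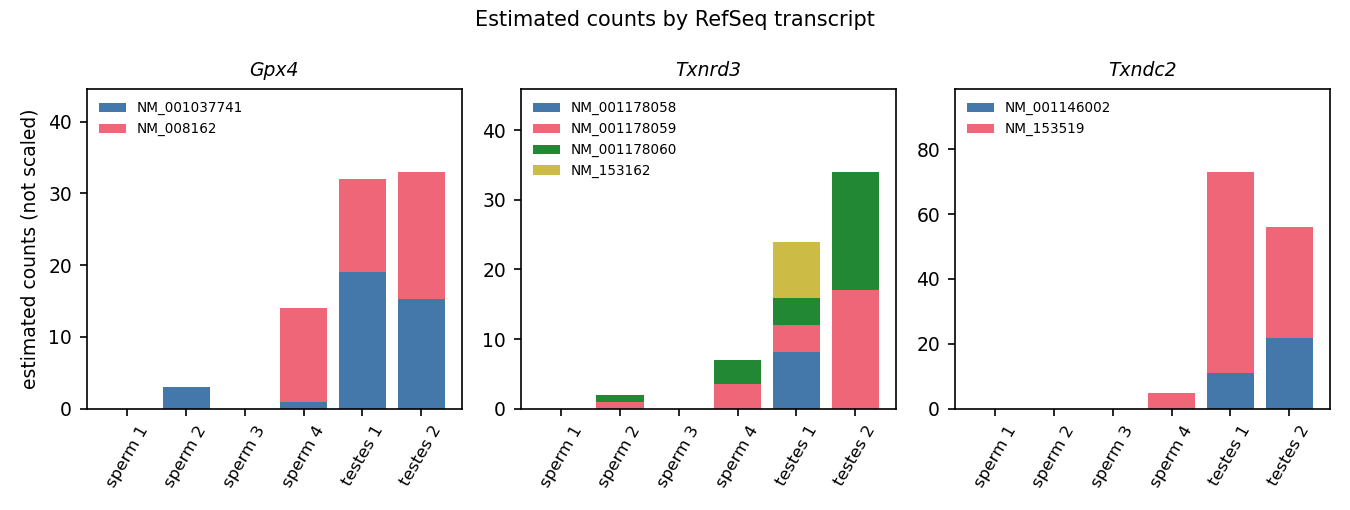
Estimated counts, not scaled for depth, on the vertical axis for each RefSeq transcript (colours) of Gpx4, Txnrd3 and Txndc2 in the 6 samples. Most sperm counts of Gpx4 lie on NM_008162 in replicate 4, and those of Txndc2 come from replicate 4 alone.

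Among the thioredoxin family genes, Txndc2 (chromosome 17, 65637505 to 65648874) had the most counts in testes, 73 and 56. Sperm replicate 4 had 5 counts, all on NM_153519, and the other 3 sperm samples had 0, among them replicate 2 with the deepest sperm library, where 20.3 counts would be found at the testes rate. Its levels were 0, 0, 0 and 92.0 CPM in sperm and 226.3 and 178.2 in testes. Both testes samples lay above every sperm sample, and the gene was not called, with a log2 fold change of -3.06 (SE 1.61, 95% interval -6.23 to 0.11, edgeR adjusted p 0.147). It was -8.04 without replicate 4 (edgeR adjusted p 0.0622), and limma on log2(FPKM + 1) called it, with -3.17 on that scale (limma adjusted p 0.0414). The gene overlaps the lncRNA gene Gm35477 in the annotation, and whether counting used the strand is not stated.

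Nme8 (chromosome 13, 19645078 to 19697826), which joins thioredoxin and nucleoside diphosphate kinase parts and belongs to the dynein arms of cilia and flagella, had 2 and 8 counts in testes and no count in sperm. The pooled testes level of 15.7 CPM was close to the 13.03 CPM that 3 counts over the 4 sperm samples allow, and was below that limit when sperm replicate 1, 2 or 4 or testes replicate 2 was left out, so no fold is given. The gene was not called (edgeR adjusted p 0.0769), nor in the 4 fits that left out 1 sperm sample (edgeR adjusted p 0.101 to 0.219). When a testes sample was left out it was not tested. It was called lower with TMM scaling (edgeR adjusted p 0.0403) and with limma on log2(FPKM + 1) and log2(FPKM + 0.1) (limma adjusted p 0.0279 and 0.0044). Txndc8 (chromosome 4, 57984021 to 58009135), a thioredoxin of the acrosome-forming Golgi region of spermatids, had 1 and 2 counts in testes and 0 in sperm, and was not tested.

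Sod1 (chromosome 16, 90220762 to 90226333) had 0 counts in all 4 sperm samples and 17 and 18 in testes, or 52.7 and 57.3 CPM. Among the 6 genes without a sperm count it had the highest testes level. The pooled testes level of 55.0 CPM was at least 4.22-fold higher than the 13.03 CPM that 3 counts over the 4 sperm samples allow, and at least 2.39-fold higher without sperm replicate 2, the deepest. It was called lower in sperm (fitted log2 fold change -6.01, SE 2.09, edgeR adjusted p 0.0323), a fitted value that depends on the treatment of zeros. The adjusted p was 0.0692 to 0.135 when 1 sample at a time was left out, and 0.0652 with DESeq2. Selenop (chromosome 15, 3270767 to 3280510) had 0 counts in sperm, and 5 and 17 in testes, or 15.5 and 54.1 CPM. Its testes values differed more between the replicates than those of Sod1, and the pooled level was at least 2.65-fold higher than the sperm limit. This bound was 1.5 without sperm replicate 2, 1.19 without testes replicate 2 and 4.15 without testes replicate 1. It was called lower (fitted log2 fold change -5.36, SE 1.86, edgeR adjusted p 0.0323), with an adjusted p of 0.0692 to 0.135 over the fits without 1 sample in which it was tested. The gene overlaps the protein-coding gene Ccdc152 in the annotation. Of the genes called lower over the whole table, 82.4% had, like these, 0 counts in all sperm samples. Among genes with 20 or more testes counts, 16.8% had none in sperm, and among the 6 members with such counts it was 2.

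The peroxiredoxins were at the limit of detection. Prdx6 (chromosome 1, 161240112 to 161251210), a peroxiredoxin that also acts on phospholipids, had 5 and 2 counts in testes and 0 in sperm. Its related copy Prdx6b, which was not among the 10 genes, had 11 and 9 counts in testes and 0 in sperm and was called lower (edgeR adjusted p 0.0323), and reads of these 2 copies may be divided by the counting. Prdx4 (chromosome X, 155323918 to 155342272), the peroxiredoxin of the endoplasmic reticulum, had 2 counts in testes replicate 2 and 0 elsewhere.

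Gstm5 (chromosome 3, 107895854 to 107898685) was listed in more sperm samples than any other member. It had 14, 2, 4 and 0 counts across sperm replicates 1 to 4 and 17 and 25 in testes, or 330.3, 20.0, 119.4 and 0 CPM in sperm and 52.7 and 79.5 in testes. Replicates 1 and 3 lay above both testes samples and replicates 2 and 4 below, so the sperm samples enclosed the testes values. The Wilson 95% interval of replicate 1, 196.7 to 554.3 CPM, did not reach that of replicate 2, 5.48 to 72.9. The gene was not called (log2 fold change 0.78, SE 1.60, 95% interval -2.38 to 3.94, edgeR adjusted p 0.752), and its sign turned with TMM scaling (-0.61), with DESeq2 (-0.49) and without sperm replicate 1 (-0.70), the sample that the study left out. Mu class transferases are similar in sequence, and of the other mu class genes listed Gstm1, Gstm4 and Gstm7 were at 0 in sperm, and Gstm2 and Gstm6 had 1 count each there. The gene also overlaps the lncRNA gene 4933431E20Rik.

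Sod1 was without a count in sperm and Gstm5 was listed in 3 of the 4 sperm samples. The 250 bases before the start of each are shown because both windows hold the core of the antioxidant response element. The letters TGACNNNGC were searched on both strands in RefSeq promoter windows of GRCm38.p6, cut to these 250 bases, and each match is in capitals, on the reverse strand in Sod1.
Sod1, chr16:90220512-90220761 (+): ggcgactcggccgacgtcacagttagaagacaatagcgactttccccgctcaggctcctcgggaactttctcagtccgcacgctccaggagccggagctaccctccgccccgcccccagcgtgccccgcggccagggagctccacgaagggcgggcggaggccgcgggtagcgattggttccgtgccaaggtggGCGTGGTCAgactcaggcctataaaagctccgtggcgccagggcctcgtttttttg
Gstm5, chr3:107895604-107895853 (+): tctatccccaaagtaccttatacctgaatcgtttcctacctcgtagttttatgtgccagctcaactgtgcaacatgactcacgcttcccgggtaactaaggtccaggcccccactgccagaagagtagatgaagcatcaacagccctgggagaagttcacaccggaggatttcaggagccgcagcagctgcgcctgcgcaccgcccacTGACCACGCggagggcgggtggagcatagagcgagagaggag

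The core was found in 3 of the 15 windows of the 9 members in the promoter table, in Sod1, Gstm5 and at 1 start of Txndc2, and in 10.2% of all 32851 windows. The full cAMP response element, TGACGTCA, which binds the spermatid factor CREM, was in none of the 15 member windows and in 1.55% of all. The TATA box letters TATAAA were in 2 member windows, those of Sod1 and of 1 start of Selenop, and in 12.4% of all. A window of Prdx6 was not used here. These matches describe letters only, and no binding was measured.

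The wider redox system was described with 5 lists holding 92 other genes, of which 79 were listed in a sample and 28 were tested. Of these 28, 1 was called higher and 5 lower in sperm, and 22 were not called, shares close to the 3.83% and 17.4% over all genes tested. Txnrd2, the mitochondrial thioredoxin reductase and itself a selenoprotein, was the gene called higher. It had 5, 5, 0 and 1 counts in sperm and 0 in both testes samples (edgeR adjusted p 0.0323), a call that was lost with TMM scaling, DESeq2 and both limma fits, without sperm replicate 1 or 2 or either testes replicate, with the replicate block, without a filter on low counts and with only the 2 deepest sperm samples. Glrx3, Prdx2, Prdx6b, Gstt2 and Gstz1 were called lower, each with 0 counts in sperm and with 14 to 88.3 in testes. Gstz1, which acts in tyrosine breakdown, had 68.3 and 20 testes counts, and Prdx2, a cytosolic peroxiredoxin, had 5 and 9. Without sperm replicate 2 or 4 or either testes replicate, or with the replicate number as a block, no gene of these lists was called lower.

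Among the other selenoproteins, 7 of 21 were tested and none was called lower. Selenot, a small protein of the endoplasmic reticulum, had 0, 2, 0 and 4 counts in sperm and 94 and 72 in testes, and was not called (log2 fold change -3.34, SE 1.51, edgeR adjusted p 0.0865). Dio1, a deiodinase of thyroid hormone, had 0, 4, 0 and 0 counts in sperm and 65 and 81 in testes, and missed the threshold (log2 fold change -4.03, SE 1.64, edgeR adjusted p 0.0620). Selenoo, a mitochondrial protein, had 9, 19, 0 and 23 counts in sperm and 32 and 46 in testes, and its sperm values lay on both sides of the testes values (log2 fold change 0.76, SE 1.29, edgeR adjusted p 0.693).

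Of 10 genes for selenoprotein synthesis and selenium supply, 1 was tested and none was called. Eefsec, the elongation factor for selenocysteine, had 6 and 4 counts in testes and 0 in sperm (edgeR adjusted p 0.0769). Lrp8, the receptor through which Sertoli cells take up Selenop, had 4.73 and 1 counts in testes and 0 in sperm, and Sephs1 had 3.91 counts in sperm and 1.93 in testes. In the thioredoxin and glutaredoxin list 8 of 23 were tested, and Glrx3 alone was called. Txnl4a, a spliceosome protein with a thioredoxin fold, had 1.03, 17.1, 0 and 1.20 counts in sperm and 56.4 and 36.2 in testes, and was not called (log2 fold change -1.30, edgeR adjusted p 0.553). Nxn had 2 sperm counts and 47 in testes (edgeR adjusted p 0.147), and Glrx2 had 3.97 and 28.7 (edgeR adjusted p 0.490).

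In the list of peroxidases and superoxide dismutases 4 of 12 were tested. Sod2, the mitochondrial superoxide dismutase, had 1.62 counts in sperm, all in replicate 1, and 13.1 and 15.0 in testes, and was not called (log2 fold change -2.04, SE 1.52, edgeR adjusted p 0.326). In the glutathione list 8 of 26 were tested, and Gsto1, an omega class transferase, had counts in every sperm sample, 19, 15, 5 and 9, against 9 and 15 in testes. Its 4 sperm samples lay above both testes samples, at 228 ± 147 CPM (SD, n = 4) and 37.8 ± 14.0 (SD, n = 2), and it was not called (log2 fold change 2.56, SE 1.48, edgeR adjusted p 0.191). Gss, glutathione synthetase, had 12, 5, 0 and 0 counts in sperm and 19 and 2 in testes.

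**Figure D5:**
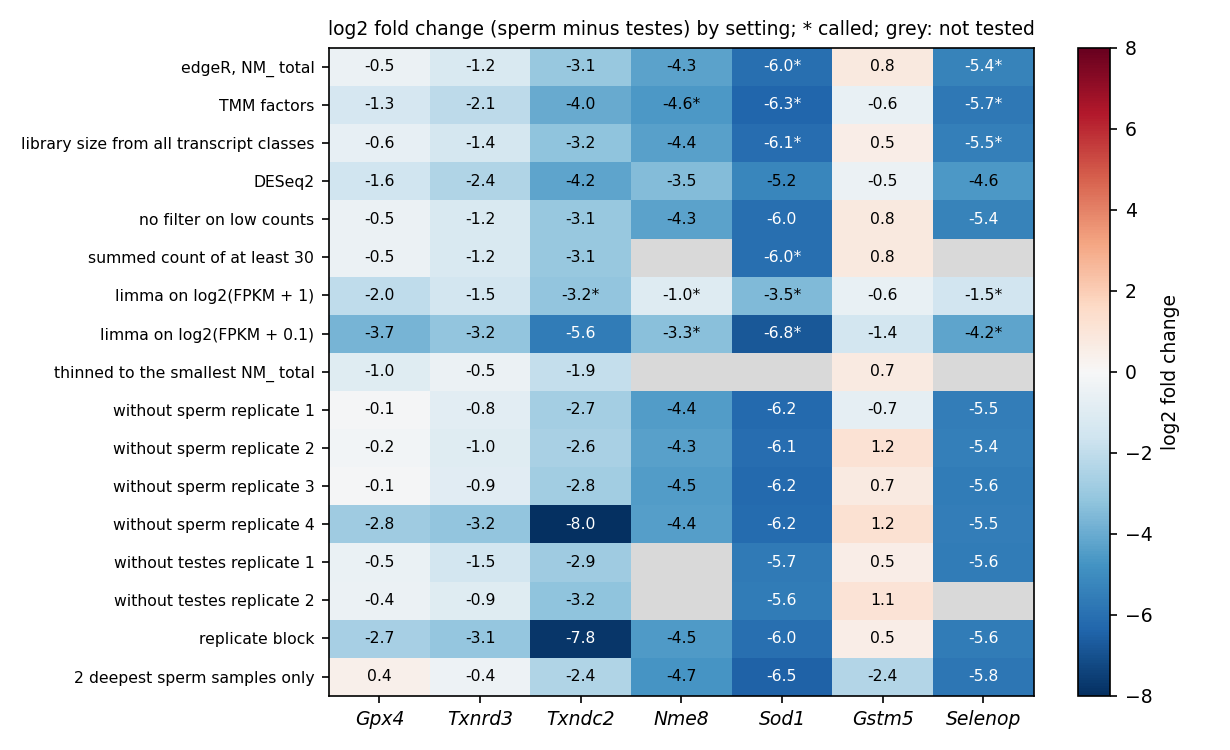
Log2 fold change, sperm minus testes, of the 7 genes tested (columns) under edgeR with the NM_ total and 16 other settings (rows), as numbers and colour, with an asterisk for a call and grey where the gene was not tested. Sod1, Selenop and Nme8 have no sperm count, so their sign below 0 is fixed in every setting that tested them. Gstm5 changes sign.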

How the data were processed

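Strand-specific, rRNA-depleted RNA sequencing was done on 4 sperm and 2 testes samples, grouped by title. The authors removed adaptors, empty and low-quality reads and aligned with SOAPaligner/SOAP2, while the submitters' processing notes name HISAT and mm10. The deposited tables give an expected count (an estimated count of fragments, not scaled) and FPKM per transcript. The counting program is not given in the sources used here. NM_ rows were summed per gene, absent rows taken as 0, sums rounded, and scaled by the NM_ total. Of 16425 NM_ transcripts, 16312 matched the GRCm38.p6 annotation. Genes with at least 10 summed counts were fitted with edgeR 4.0.16 (R 4.3.3). Alternatives used limma 3.58.1, DESeq2 1.42.0 and Python 3.11.15. All 4 sperm samples were used, including replicate 1, which the study left out. Members and lists were chosen with earlier results of these data known. Named were all members, every other redox gene called, and the 3 with most counts in each list. Sperm and testes samples are biological replicates per the study's methods, each sperm sample a pool. The labels give no batch. Replicate pairs differed by more than sampling noise (chi-square of 4.93 to 12.5 per degree of freedom), so none were merged. Intervals and floors (3 counts) cover counting error only. In simulated counts at the estimated dispersion, 200 of 6949 genes changed 16-fold, and edgeR recovered 28 of 100 rises and 1 of 100 falls with 0 false calls. At a dispersion of 0.05 it recovered 100 and 44, with 7 false calls. For a 4-fold change it recovered 0 rises and 0 falls at the estimated dispersion, with 0 false calls. At 0.05 these were 59 and 20, with 3 false calls.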

Additional observations from a re-analysis of the deposited data

Results flagged for a closer look

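In sperm replicate 4, the levels of Gpx4 (257.6 CPM), Txnrd3 (128.8 CPM) and Txndc2 (92.0 CPM) stood far above those of the other 3 sperm samples. The gap to the next sample was 0.884, 0.845 and 1.00 of the range, above Dixon's 95% critical value for 4 samples. For normally distributed values chance flags about 1 in 20 groups, a rate that need not hold for counts that are mostly 0. Txndc2 had counts in replicate 4 alone, which gives 1.00 at any count. In all 5 values were examined, and these levels rest on 14, 7 and 5 counts. The late spermatid and sperm markers also had their highest sperm level in replicate 4, 3110 CPM against 1557 to 2569, most of it from Prm2 (2392 CPM). So did those of epididymis epithelium, 184.0 CPM against 0, 19.99 and 119.4, which was above both testes samples (86.8 and 136.8). Its NM_ total of 54337 was the second highest in sperm. The part of these in the 3 levels was not tested.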

How the results depend on the processing

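The edgeR fit on the NM_ total called 266 genes higher and 1212 lower in sperm over the whole table, 0 and 2 of the 10 genes, and 1 and 5 of the other redox genes. No setting called any of the 10 higher. With TMM, 60 genes were higher, 3 of the 10 were lower (Nme8, Sod1 and Selenop), and 0 other redox genes were higher and 11 lower. With DESeq2, 140 genes were higher and 778 lower, 0 of the 10 were lower, and 0 other redox genes were higher and 3 lower, with Selenop and Nme8 left without an adjusted p. Without a filter on low counts these were 27, 7, 0, 0 and 0. With at least 30 summed counts, 753 genes were lower, 1 of the 10 (Sod1) was lower, and 0 other redox genes were higher and 1 lower, over fewer genes tested. With limma on log2(FPKM + 1), 4 of the 10 were lower (Txndc2, Nme8, Sod1 and Selenop), and 0 other redox genes were higher and 11 lower. With limma on log2(FPKM + 0.1), 2132 genes were lower, 3 of the 10 were lower (the same 3 as with TMM), and 0 other redox genes were higher and 12 lower. Thinned to the smallest NM_ total, 101 genes were higher and 75 lower, and 0 of the 10 and 0 other redox genes were called, with only 2700 genes left to test. Leaving out 1 sample at a time gave 36 to 338 genes higher and 16 to 394 lower, 0 to 1 other redox genes higher and 0 to 2 lower, and 0 of the 10 lower each time. The fewest calls came without sperm replicate 2. Without sperm replicate 1, 241 genes were higher and 249 lower. With only the 2 deepest sperm samples, an alternative chosen after seeing the data, 606 genes were higher and 698 lower, 0 of the 10 were lower, and 0 other redox genes were higher and 3 lower.

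The log2 fold change of Gstm5 turned to -0.61 with TMM, -0.49 with DESeq2, -0.61 and -1.45 with limma at the larger and smaller pseudocount, -2.37 with the 2 deepest sperm samples and -0.70 without sperm replicate 1 (-0.70 to 1.20 over all samples left out), and that of Gpx4 to 0.38 with the 2 deepest. Apart from settings that leave out samples, the cause was not tested. The fold changes of Txnrd3 and Txndc2 kept their sign in every setting. Those of Sod1, Selenop and Nme8 could not turn, since these genes had no sperm count.

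Sperm and testes share the numbers 1 and 2 in their titles, but nothing ties same-numbered samples to the same mice, and the correlations of their deviations were -0.0121 and -0.0478 over 6949 genes. With the replicate number as a block, 160 genes were higher and 103 lower, 0 of the 10 were lower, and 0 other redox genes were higher and 0 lower. Sperm replicates 3 and 4 have no partner there.

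Depth and the spread between samples both limit the calls. The 10 genes hold 51 sperm counts in all, so 1 sample can set a gene's level.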

Other observations

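In 3 of the 4 sperm samples, either Gstm5 or the group of Gpx4, Txnrd3 and Txndc2 had counts, but not both. Replicates 1 and 3 had 18 counts of Gstm5 and 0 of the other 3 genes, and replicate 4 had 0 of Gstm5 and 26 of the other 3. Replicate 2, the deepest, had both, with 2 counts of Gstm5, 3 of Gpx4 and 2 of Txnrd3. Replicates 1 and 3 listed 2025 and 1552 of the 14455 genes, so most genes were at 0 there. At the pooled testes rate replicate 4 would hold 3.58 counts of Gstm5. How often other genes show such a pattern was not examined.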
